A study of Mus musculus with 6 samples.

Results

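The Hox genes encode homeodomain transcription factors that give the cells of the trunk and limbs their position along the body axis. They were examined in DR4 mouse embryonic fibroblasts, which serve as feeder layers for embryonic stem cells and were the feeder control for samples of the J1, R1 and V6.5 lines. The members were all probe sets, the groups of short oligonucleotides by which an array measures a transcript, that the platform annotation gives 1 symbol of the form Hox, a cluster letter from a to d and a number. This gave 37 of 22626 probe sets for 31 genes on the MOE430A array and 11 of 22511 for 9 genes on the MOE430B array, together 48 probe sets for 33 of the 39 Hox genes in RefSeq. The other Hox genes are not analysed here.

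The series holds 1 condition, with no treatment: fibroblasts of day 15 embryos, cultured on 0.1% gelatin in D-MEM that contained LIF and 15% serum. RNA of 3 replicates was hybridized to each array type. Replicate 1 had 2.4 ug/ul of RNA from a larger number of cells than replicates 2 and 3, which had 3.0 ug/ul each. The labels give neither the part of the embryo nor the alleles of the DR4 cells. They also do not say whether each replicate was its own culture, and the spread between replicates may be technical. Values are MAS5 signals, a linear intensity, and the number of arrays limits their precision. Since the culture was measured in bulk, a low signal from few expressing cells cannot be told apart from little RNA in each cell.

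Mouse Hox genes lie in 4 clusters, HoxA on chromosome 6, HoxB on 11, HoxC on 15 and HoxD on 2 in RefSeq's GRCm38.p6, and are numbered by paralogue group, that is by the ancestral gene from which the copies in each cluster derive. Low numbers are expressed up to more anterior levels of the embryo and high numbers toward the tail and the ends of the limbs, in the order in which the genes lie on the chromosome. Fibroblasts keep much of this pattern in culture, so a Hox profile is often read as a record of where the cells came from. Polycomb proteins hold unused Hox genes silent, trithorax proteins keep active ones on, and PBX, MEIS and PKNOX proteins bind DNA beside HOX proteins.

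The median signal of each array served as a floor (689, 685 and 734 on MOE430A and 849, 917 and 907 on MOE430B in replicates 1, 2 and 3), and a probe set counted as above it if it was so on all 3 arrays of its type. On MOE430A 9 of 37 Hox probe sets (24.3%) were above the floor, against 42.4% of all MOE430A probe sets. By genes these were 7 of 31 (22.6%), against 50.0% of the genes measured there: Hoxa5, Hoxa9, Hoxa11, Hoxb2, Hoxc6, Hoxc8 and Hoxd8. The median Hox probe set lay at -0.69 on the log2 scale relative to the floor and the median of all probe sets at -0.06. A further 8 Hox probe sets were above the floor on 1 or 2 arrays, and 20 on none. The floor sets apart brighter from dimmer probe sets and does not say which genes are transcribed.

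**Figure D1:**
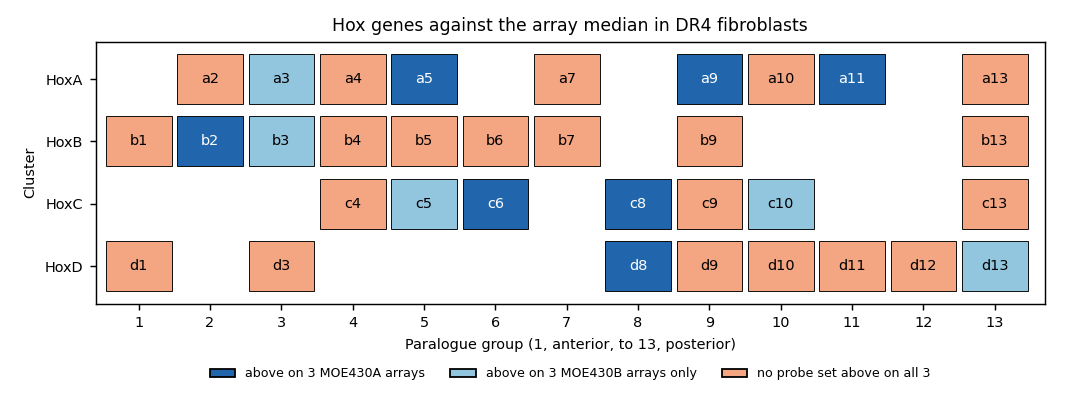
Map of the 33 Hox genes analysed, with the 4 clusters as rows and the paralogue groups as columns; the colour says whether a probe set of the gene lay above the array median on all 3 arrays of a type. The 7 genes above it on MOE430A fall in all 4 clusters, and 5 more (light blue) were above it through MOE430B alone.

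In paralogue groups 1 to 3, 1 of 6 genes measured on MOE430A was above the floor, in groups 4 to 8 it was 4 of 12, and in groups 9 to 13 it was 2 of 13. By cluster it was 3 of 9 in HoxA, 1 of 9 in HoxB, 2 of 6 in HoxC and 1 of 7 in HoxD. Hoxc6 and Hoxc8, which have no Hox gene between them, were the 1 adjacent pair above the floor on MOE430A, and the 7 genes reached from Hoxb2 in the anterior part of the series to Hoxa11 in the posterior part. These counts are small and were not tested.

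Hoxc6, a gene of the thoracic region, had the highest signals of any Hox probe set on MOE430A. Its probe set 1427361_at read 3338, 3040.0 and 3829.7 in replicates 1, 2 and 3 (3402 ± 399, SD, n = 3), and 1427362_x_at read 3660.1, 3219 and 3243 (3374 ± 248). Both stood above the floor by a wide margin on every array and near the 87th percentile of the array (87.4 and 87.3). The third Hoxc6 probe set, 1427454_at, read 34.9, 36.5 and 283, below the floor throughout, so the 3 probe sets of this gene lay on different sides of it. The suffix x marks a probe set of which some probes match other transcripts too.

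The neighbouring thoracic gene Hoxc8 read 1166, 1786 and 1344 (1432 ± 319). Hoxd8, of the same paralogue group, read 1299, 1535 and 1123 (1319 ± 207). Both lay above the floor on each array. Hoxa5, which is needed for the lung and the pattern of the neck and upper thorax, read 930.0, 876 and 1325 (1043 ± 245), and was the second nearest to the floor of the 9, at 1.28 times it on the closest array. Hoxb2, a gene of the hindbrain and the most anterior of the 7, read 1487.5, 1682 and 1450.3 (1539.9 ± 124), the narrowest spread among the genes above the floor with 1 probe set.

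Among posterior genes, Hoxa11, which patterns the forearm and lower leg and the uterus, read 1451, 1802 and 1481 (1578 ± 194). Hoxa9, a gene of the lumbar region and of blood progenitors, read 1903, 1736 and 2967 (2202 ± 668) on 1421579_at and 690.0, 1440.3 and 1379 (1169.7 ± 417) on 1455626_at. The 2 Hoxa9 probe sets differ in which replicate is high, and the second was above the floor in replicate 1 by 1.00 times, the closest of all members. Hoxa10, which lies between Hoxa9 and Hoxa11, read 678, 974 and 529.6 and was above the floor in replicate 2 alone.

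Promoter windows from RefSeq (GRCm38.p6, from 250 bases before to 50 after the transcript start) were found for 22 of the 39 Hox genes, 24 windows in all. Of these, 4 are shown because they belong to members described here with neighbours on either side of the floor: Hoxa9 (chr6:52227321-52227620, minus strand) and Hoxa11 (chr6:52245761-52246060, minus strand) lie on either side of Hoxa10, and Hoxd8 (chr2:74704365-74704664, plus strand) lies next to Hoxd9 (chr2:74697513-74697812, plus strand), which was below the floor. Sequences run 5′ to 3′ along the gene, and capitals mark each CG dinucleotide.
Hoxa9: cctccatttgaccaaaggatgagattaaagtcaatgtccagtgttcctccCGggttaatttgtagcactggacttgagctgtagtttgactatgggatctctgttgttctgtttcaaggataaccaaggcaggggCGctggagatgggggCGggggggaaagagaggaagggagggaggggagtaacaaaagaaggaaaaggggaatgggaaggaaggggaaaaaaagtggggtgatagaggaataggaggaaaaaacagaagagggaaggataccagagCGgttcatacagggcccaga
Hoxa11: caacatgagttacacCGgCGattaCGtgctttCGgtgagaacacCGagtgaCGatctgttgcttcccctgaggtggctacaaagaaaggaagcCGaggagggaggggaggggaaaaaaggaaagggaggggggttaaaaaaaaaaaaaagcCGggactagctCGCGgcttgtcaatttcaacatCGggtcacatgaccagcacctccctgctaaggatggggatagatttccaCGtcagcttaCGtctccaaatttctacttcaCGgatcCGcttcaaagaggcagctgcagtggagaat
Hoxd8: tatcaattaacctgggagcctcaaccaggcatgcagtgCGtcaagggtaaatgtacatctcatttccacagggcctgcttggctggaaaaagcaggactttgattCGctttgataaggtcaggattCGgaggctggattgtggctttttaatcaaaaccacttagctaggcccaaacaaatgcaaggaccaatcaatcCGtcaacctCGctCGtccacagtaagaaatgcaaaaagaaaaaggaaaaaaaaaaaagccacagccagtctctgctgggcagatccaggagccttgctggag
Hoxd9: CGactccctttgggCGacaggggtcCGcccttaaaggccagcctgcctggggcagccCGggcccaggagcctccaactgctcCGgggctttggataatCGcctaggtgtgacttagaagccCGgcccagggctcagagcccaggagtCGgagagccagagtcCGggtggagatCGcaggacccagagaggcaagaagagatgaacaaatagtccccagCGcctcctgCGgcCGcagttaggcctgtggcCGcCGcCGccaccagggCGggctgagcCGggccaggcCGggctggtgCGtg
CpG-rich promoters are the usual landing sites of Polycomb and trithorax complexes. The windows held 4 CG dinucleotides in Hoxa9, 15 in Hoxa11, 6 in Hoxd8 and 20 in Hoxd9, so of these 4 the gene below the floor had the most. Over the 24 Hox windows the median was 14.5 and the range 4 to 45, with a median observed over expected ratio of 0.63, against a median of 7 and a ratio of 0.38 over 32851 windows of all genes. The windows of the 6 genes with a probe set above the floor on either type had a median of 17.5 and the 15 of measured genes below it a median of 14. Letters of the CCAAT box (CCAAT, either strand) stood in 62.5% of Hox windows and 37.4% of all, those of the TATA box (TATAAA) in 16.7% and 13.6%, those of the GC box (GGGCGG) in 41.7% and 35.7%, and TGATNNAT, a form of the joint PBX and HOX site, in 16.7% and 8.85%. These are matches of letters in a window that need not hold the start used in fibroblasts.

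Of the other MOE430A genes, a group lay above the floor on some arrays and below it on others. Hoxb9 read 1172, 674 and 1009, short of it in replicate 2 alone, where it reached 0.98 times the floor. Hoxa3 read 645, 934 and 821 on 1452421_at, short of it in replicate 1 alone, and Hoxb6 read 730.3, 962 and 558, short of it in replicate 3 alone. Hoxb7, at 694, 474 and 762, and Hoxc9, at 1010.5, 269 and 744, crossed it the same way, with replicate 2 lowest. Hoxb3 read 417, 936 and 772, and 1460379_at of Hoxb4 read 691, 475.5 and 253. For these 7 genes and Hoxa10, the side of the floor differed between replicates.

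Below the floor on every MOE430A array were Hoxa2, Hoxa4, Hoxa7, Hoxa13, Hoxb1, Hoxb5, Hoxb13, Hoxc4, Hoxc5, Hoxc13, Hoxd1, Hoxd9, Hoxd10, Hoxd11, Hoxd12 and Hoxd13, as well as 1 probe set each of Hoxa3, Hoxb4 and Hoxc6. Their signals ran from 9.87 in Hoxd1 to 674 in Hoxd9. Hoxb13, a gene of the tail and prostate, read 30.4, 14.6 and 40.0, and Hoxd1, at 9.87, 21.4 and 67.0, lay in the lowest 1.95% of the array. In HoxD all of Hoxd9 to Hoxd13 were below the floor on MOE430A, with Hoxd9 nearest (572, 674 and 557), Hoxd11 next (549, 223 and 613), then Hoxd10 (286, 82.4 and 350.1), Hoxd12 (121, 62.5 and 81.1) and Hoxd13 (38.2, 39.6 and 121). Probe sets differ in how well they bind their target, so this is no order of expression.

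**Figure D2:**
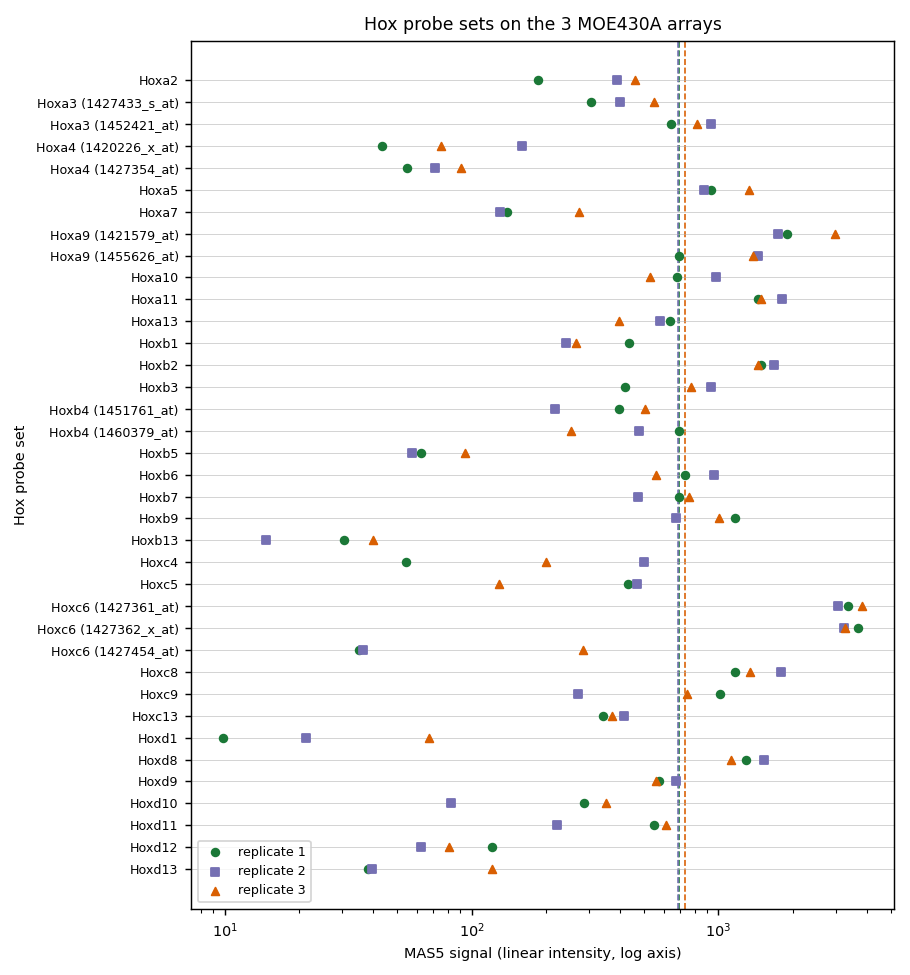
MAS5 signal (log axis) of each of the 37 Hox probe sets on the 3 MOE430A arrays, with points for replicates and dashed lines for the floor of each array in the replicate's colour. The 9 probe sets with each point to the right of its own array's line belong to 7 genes, and 2 of those of Hoxc6 lie farthest right at 3040.0 to 3829.7.

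On MOE430B 6 of 11 Hox probe sets (54.5%) were above that array's floor, against 37.2% of all its probe sets, each for a different gene. Hoxc10, a gene of the lumbar region and hindlimb measured on this type alone, read 5283, 5989 and 2518 (4597 ± 1834), with replicate 3 below the other two. Hoxd13, the gene of the digits and genital tubercle, read 3594, 3647 and 3945 (3729 ± 189). Hoxa5 read 2802, 3783 and 3867 (3484 ± 592), and Hoxb3, a hindbrain gene, read 1416, 3215 and 2194 (2275 ± 902). Hoxa3, needed for thymus and parathyroid, read 2337, 2013 and 2366 (2239 ± 196) on 1431392_at, and Hoxc5 read 2133, 1723 and 1695 (1850.3 ± 245) on 1439885_at. With these, 12 of 33 Hox genes (36.4%) had a probe set above the floor on either type, against 54.7% of all genes.

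The 2 array types carry 100 probe sets in common, and these show that their signals are on different scales. In the same RNA each of the 100 read higher on MOE430B, by a median of 4.15 times in replicate 1, 3.46 times in replicate 2 and 3.79 times in replicate 3. The MOE430B floor was therefore lower relative to RNA than that of MOE430A. With the MOE430A floor multiplied by these ratios, a floor chosen after the values were seen, it stood at 2863, 2367 and 2781, and 12.4% of MOE430B probe sets were above it. Of the 11 Hox probe sets 1 then was, that of Hoxd13, and Hoxa5 and Hoxc10 were above it on 2 arrays each. The count of genes became 8 of 33, the 7 of MOE430A and Hoxd13. The tables were scaled separately by the authors' software, and this setting of a level from one against the other rests on those 100 probe sets.

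**Figure D3:**
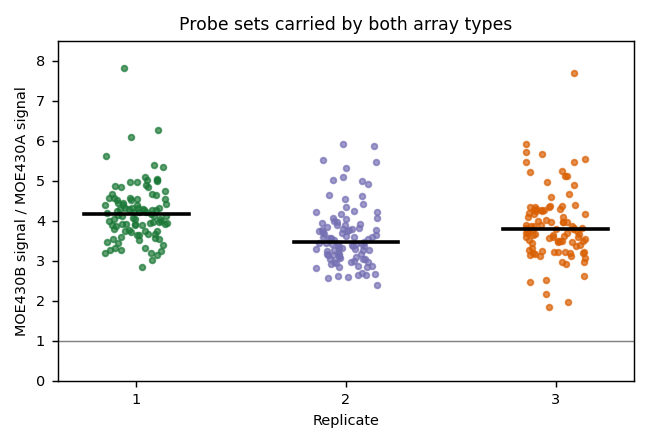
Ratio of the MOE430B to the MOE430A signal (vertical axis, linear) for the 100 probe sets that both array types carry, by replicate; each point is a probe set and black bars are medians. All points lie above 1, with medians of 4.15, 3.46 and 3.79.

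**Figure D4:**
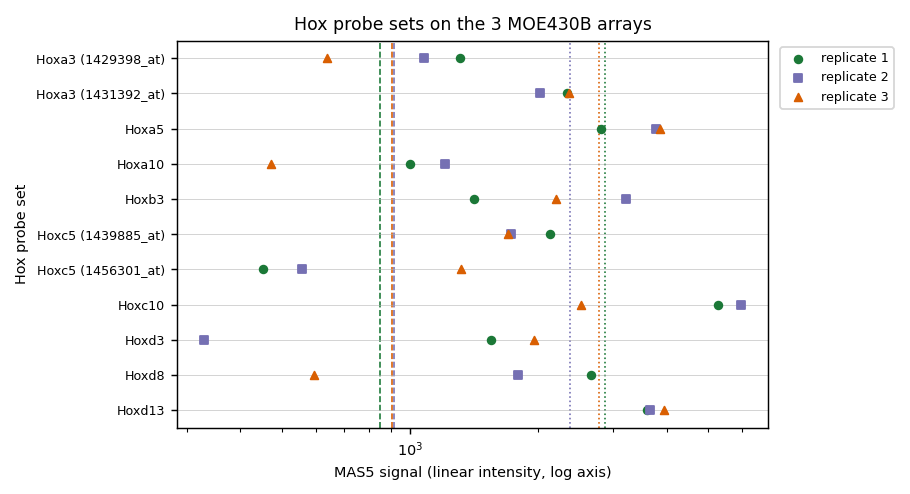
MAS5 signal (log axis) of the 11 Hox probe sets on the 3 MOE430B arrays, with dashed lines for the array medians and dotted lines for the MOE430A floor multiplied by the ratio of common probe sets, each in its replicate's colour. All 3 points of 6 probe sets lie right of the dashed lines, and Hoxd13 alone has all 3 right of the dotted ones.

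The 7 genes with probe sets on both types gave a check of each call. Hoxa5 was above the floor on both. Hoxd8 was above it on MOE430A but on MOE430B read 2659.7, 1787 and 594, with replicate 3 below the floor. Hoxa10 was above on neither, at 997, 1207 and 473 on MOE430B. Hoxb3 was above the floor on MOE430B and on 2 of 3 MOE430A arrays, and was lowest in replicate 1 on both types. Hoxa3 had 4 probe sets: besides those above, 1427433_s_at read 305, 401 and 551 on MOE430A and 1429398_at read 1306, 1077 and 638 on MOE430B. Hoxc5 read 431, 468 and 129.6 on MOE430A and on its other MOE430B probe set 453, 557 and 1315.

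Of the 7, Hoxd13 had the widest gap between its probe sets. Its MOE430A probe set 1422239_at lay at 0.06, 0.06 and 0.16 times the floor and its MOE430B probe set 1440626_at at 4.23, 3.98 and 4.35 times, each on the same side on all 3 arrays. Which of them reports the Hoxd13 transcript was not tested. Of the 11 genes with more than 1 probe set, 6 had probe sets on different sides of the floor (Hoxa3, Hoxb3, Hoxc5, Hoxc6, Hoxd8 and Hoxd13). Of the other five, Hoxa5 and Hoxa9 had every probe set above it on all 3 arrays, and Hoxa4, Hoxa10 and Hoxb4 had none that was. Such splits were not counted over all genes, so their number is not read as particular to Hox genes. They also occurred outside the family, as in Eed, Kmt2a and Tbx15, each with 1 of 2 probe sets above the floor. Hoxd3, measured on MOE430B alone, read 1551, 329 and 1950.3, above the floor in replicates 1 and 3.

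The spread between replicates was next compared with that of other genes. Above the floor, the median SD was 0.22 on the log2(signal + 16) scale over the 9 MOE430A probe sets and 0.24 over all 9600, and 0.22 over the 6 on MOE430B and 0.28 over all 8384. Of the 9, 8 kept within 2-fold over the 3 arrays, and 1455626_at of Hoxa9 did not. Of the 6, Hoxb3 and Hoxc10 did not, with highest over lowest ratios of 2.27 and 2.38. Among all 37 MOE430A members, replicate 2 was lowest in 15 (40.5%, against 33.5% of all probe sets), replicate 1 in 14 (37.8%, against 34.9%) and replicate 3 in 8 (21.6%, against 31.6%). MOE430B ran the other way for replicates 2 and 3. Of its 11 members, replicate 2 was lowest in 2 (18.2%, against 30.7%), replicate 1 in 4 (36.4%, against 35.3%) and replicate 3 in 5 (45.5%, against 34.0%).

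Replicate 1 was set against replicates 2 and 3 because the labels record it as different in cells and RNA. No Hox probe set differed by limma at an adjusted p of 0.05, 0 of 13 tested on MOE430A and 0 of 9 on MOE430B. Over all probe sets tested limma called 0.705% of 11066 on MOE430A and 0% of 10594 on MOE430B, where 767 had an unadjusted p under 0.05. This sets a single array against a pair, leaving 1 residual degree of freedom, and takes replicate 1 to have the spread of the other arrays. The lowest Hox p was that of 1455626_at of Hoxa9, with a log2 difference of -1.01 ± 0.37 (SE, replicate 1 minus replicates 2 and 3; unadjusted p = 0.01, adjusted p = 0.308 in limma). The other Hoxa9 probe set differed by -0.25 ± 0.39 (adjusted p = 0.963 in limma), at -0.64 without replicate 2 and 0.13 without replicate 3. The first was the 1 Hox value of 13 on MOE430A with an unadjusted p under 0.05 in limma, near the share over all probe sets there (900, 8.13%), and on MOE430B there were 0 of 9.

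On MOE430A 11 of the 13 Hox differences were below 0 (9 of 13 with quantile normalization, where Hoxd8 and Hoxb6 turned, 7 without replicate 2 and 8 without replicate 3). On MOE430B 6 of 9 were above 0, 4 without replicate 2 and 5 without replicate 3. The median difference on MOE430A was -0.083 over the 13 and -0.011 over all probe sets tested. On MOE430B it was 0.317 over the 9 and 0.032 over all. Signs were not counted over all probe sets, so these counts are not read as a trait of Hox genes. On MOE430B the sizes were largest for Hoxd8 (1.35 ± 0.73), Hoxd3 (0.93 ± 1.09) and Hoxb3 (-0.90 ± 0.43), none of which passed (adjusted p of 0.795, 0.896 and 0.77 in limma). The Hoxd8 probe set on MOE430A differed by -0.02 ± 0.37, so the MOE430B value had no counterpart there. On MOE430A replicate 3 was run on another fluidics station and scanned on another day than the others. On MOE430B the station differed for replicate 1 alone, so its effect cannot be told apart from that of the replicate. Without replicate 2 the Hoxd3 difference was -0.33 and without replicate 3 it was 2.18. That of Hoxd8 on MOE430B was 2.13 and 0.57, and that of Hoxc10 1.06 and -0.18.

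**Figure D5:**
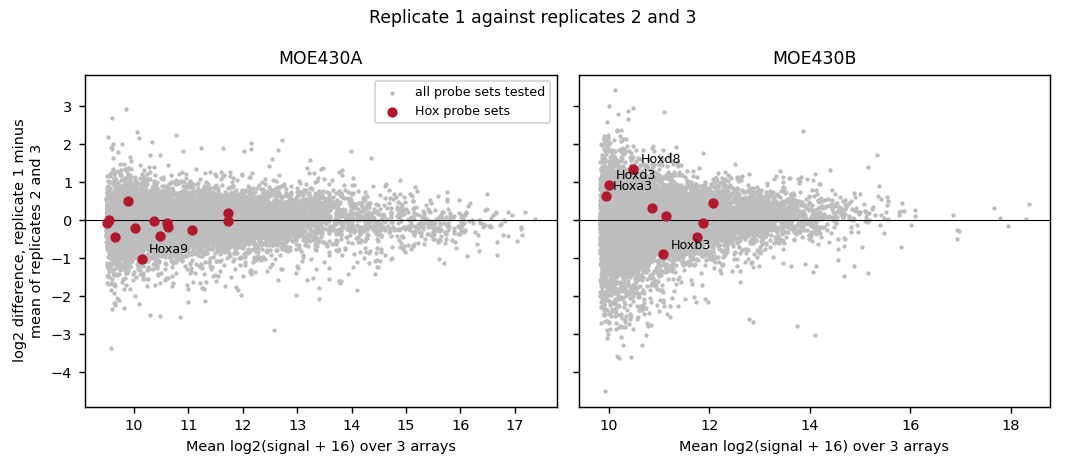
Difference between replicate 1 and the mean of replicates 2 and 3 on the log2(signal + 16) scale (vertical axis) against the mean signal (horizontal axis) for the 11066 MOE430A and 10594 MOE430B probe sets tested, Hox probe sets in red. The 13 and 9 red points lie inside the grey cloud, with 1455626_at of Hoxa9 at -1.01 and Hoxd8 on MOE430B at 1.35 the farthest from 0.

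The partners of HOX proteins were mostly above the floor. On MOE430A 7 of 10 measured genes of this list were above the floor, against 50.0% of genes there. On either type it was 9 of 10, against 54.7%. Tgif1 and Tgif2, which are not among the HOX partners named above, are among the 7. Pbx3 read 1315, 1584 and 2825 (1908 ± 805), Tgif1 1860.1 ± 277, Meis2 1612 ± 526 and Tgif2 1338 ± 158. Pbx4 (182 ± 36.4) was not. The probe sets of Meis1 differed: the brightest on MOE430A read 392, 337 and 41.2, below the floor. Of its 3 probe sets 2 were above the floor, both on MOE430B. Meis2 had 2 of 4 probe sets above the floor and Tgif2 1 of 2.

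The chromatin proteins that hold Hox genes off or on were counted against the same shares of all genes, 50.0% on MOE430A and 54.7% on either type. Of the Polycomb genes 10 of 14 were above the floor, through MOE430A alone, among them Phc2 (4475 ± 814), the H2A ubiquitin ligase Rnf2 (2093 ± 332), Eed (1465 ± 248), which binds the methyl mark, and Jarid2 (1345 ± 161). The H3K27 methyltransferase Ezh2 lay close to the floor at 707, 762 and 768 (746 ± 33.6), and the chromobox gene Cbx7 (501 ± 48.4) was below it. Another, Cbx8, read 723, 527 and 883, short of the floor in replicate 2 alone. Of the trithorax and activating genes 8 of 11 were above it on MOE430A and 13 of 14 on either type. On MOE430A the remodelling ATPase Smarca4 read 5939.8 ± 323, Wdr5 2757 ± 341 and the H3K4 methyltransferase Kmt2a 2151 ± 585. On MOE430B Kmt2b read 7958 ± 1194, the H3K27 demethylase Kdm6b 6998 ± 1898 and Rbbp5 6719.6 ± 1475. The related demethylase Kdm6a (362 ± 79.7 on MOE430A) was below the floor. Some of the genes above it were so on part of their probe sets. These were 1 of 2 for Eed, Wdr5 and Kmt2a, 1 of 3 for Jarid2 and 2 of 5 for Rnf2.

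Of 15 genes of the signals that start Hox expression in the embryo, 2 were above the floor on MOE430A, against 50.0% of all genes, and 3 of 16 were on either type, against 54.7%: the retinoic acid receptor Rarg (2975 ± 867), Wnt5a (1235 ± 219) and, on MOE430B, Cyp26b1 (5516 ± 1020.3), which breaks down retinoic acid. The caudal genes Cdx1 (33.0 ± 7.21), Cdx2 (225 ± 237) and Cdx4 (330.5 ± 16.7), which act on Hox genes in the tail bud, and the retinoic acid synthesis gene Aldh1a2 (106 ± 7.60) were not.

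Genes outside the Hox family that border the clusters were also counted. Of the 3 nearest protein-coding genes with a probe set on each side of the 4 clusters, 19 of 24 were above the floor on either type, against 54.7% of all genes, and 14 of the 18 measured on MOE430A, against 50.0%. On MOE430A, Skap2 beside HoxA read 2543, 1963 and 2683 (2397 ± 382) and Mtx2 beside HoxD 2346, 2337 and 1951 (2211 ± 225). On MOE430B, Lnpk beside HoxD read 1588, 1557 and 1284 (1477 ± 167) and Smug1 beside HoxC 4298, 4330.3 and 3404 (4011 ± 526). The homeobox genes at the posterior ends of HoxA and HoxD, Evx1 (96.6, 52.5 and 57.5) and Evx2 (597, 748 and 959.9), were not above it on all arrays, and Evx2 fell short in replicate 1 alone. Cbx3, Calcoco2 and Skap1 were the other three not above it. This is a description, since the neighbours were not tested against the Hox genes.

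The fibroblast label was checked against marker genes. All 18 fibroblast genes listed were above the floor on MOE430A, against 50.0% of all genes there, with Vim at 149376 ± 17104. On the same arrays 3 of 11 skeletal muscle, 2 of 12 pluripotency, 2 of 10 endothelium, 2 of 10 macrophage, 1 of 10 neuron and 1 of 9 epithelium genes were. The mesenchymal regulators Prrx1 (10458 ± 813) and Prrx2 (6578 ± 1571) stood among 8 of 12 above it. Whether any Hox signal came from cells other than fibroblasts was not tested.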

How the data were processed

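RNA of DR4 fibroblasts was hybridized to MOE430A and MOE430B arrays, 3 replicates each. The authors deposited linear signal intensities, made with MAS5 per the submitters' processing notes. Version and settings: not given in the sources used here. Each type was scaled on its own, and tests stayed within a type. Deposited instrument records gave stations and no measurement.

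Each probe set took its symbol from the platform annotation, some of it old. The 3 probe sets with several Hox symbols and 5 of antisense RNAs are no members. The floor was each array's median. limma (3.58.1, R 4.3.3) ran lmFit and eBayes on log2(signal + 16) over probe sets brighter, by mean log2 over the arrays, than the floor, with Benjamini-Hochberg adjustment over all of them at 0.05, after trial on simulated data. Every Hox gene is named. Of each other list up to 4 of the brightest genes above the floor are named, with further genes chosen after their values were seen. The cluster neighbours given with values did not follow this rule and are not the brightest. A listed gene's value is its brightest MOE430A probe set, or MOE430B where it has none there. Members, lists and tests were chosen with earlier results of these data known.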

Additional observations from a re-analysis of the deposited data

Results flagged for a closer look

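Signals were also present in Hox probe sets that are no members. Hoxb5os, an antisense RNA of the HoxB cluster, read 3943, 3651 and 5396 on MOE430B (4330.1 ± 934, SD, n = 3), above the array's median and above the MOE430A floor multiplied by the ratio of common probe sets on all 3 arrays. A MOE430A probe set that the annotation gives several Hox symbols, and which is therefore not named, read 924, 809 and 828 (854 ± 61.5), above the floor on all 3 arrays. The other 2 probe sets with several Hox symbols were below it.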

How the results depend on the processing

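On MOE430A the count of 9 Hox probe sets above the floor ran from 10 to 12 with 1 replicate left out. It was 15 when 2 of 3 arrays sufficed. With the floor at the brightest tryptophan control it was 10, where 41.5% of all MOE430A probe sets passed. A fixed signal of 200 gave 24 of 37, against 68.0% of all, and the 75th percentile 2, against 20.7%. On MOE430B the count of 6 ran from 6 to 9 with 1 replicate left out and was 10 with 2 of 3 arrays. A signal of 200 gave 11, against 70.0% of all MOE430B probe sets. The 75th percentile and the tryptophan control gave 3 each, against 17.7% and 16.2%. The MOE430A floor multiplied by the common ratio, which was chosen after seeing the data, gave 1, against 12.4%. By genes the count of 12 ran from 12 to 16 without 1 replicate, was 24 with a signal of 200, 4 with the 75th percentile (Hoxa5, Hoxc6, Hoxc10 and Hoxd13), 6 when all probe sets of a gene had to pass and 7 on MOE430A alone. The share of all genes was counted only for the main setting (54.7%) and for MOE430A alone (50.0%). That of all probe sets was not counted with a replicate left out or with 2 of 3 arrays. Moves without such a share are not read as particular to Hox genes. Leaving out a replicate can only add genes, since a call needs every array: without replicate 2 Hoxb7, Hoxb9, Hoxc9 and Hoxd3 joined, and without replicate 3 Hoxa10 and Hoxb6. The median SD of 0.22 on MOE430A ran from 0.13 without replicate 3 to 0.26 with quantile normalization. On MOE430B that of 0.22 ran from 0.12 without replicate 1 to 0.28 without replicate 2. Each move was less than the spread over members, but on MOE430B that spread (0.25) was larger than the median itself, so no fall could exceed it. limma's 78 calls among all MOE430A probe sets became 0 with quantile normalization, 0 without the filter and 164 with a trend, and the cause was not tested; on MOE430B they were 0 throughout. Hox calls were 0 in each. Under quantile normalization the sign of the MOE430A difference turned for Hoxd8 (from -0.02 to 0.032) and Hoxb6 (from -0.01 to 0.042). Leaving out replicate 2 or 3 gives limma no residual degree of freedom, so no count is given. No paired analysis was possible because no test sets the 2 array types, which were scaled apart, against each other, and the one contrast tested is between the replicates themselves.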

Other observations

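Of 18 other regulators of body and limb position measured on MOE430A 4 were above the floor on all 3 arrays, against 50.0% of all genes, and 10 of 22 on either type, against 54.7%. Tbx15, a gene of the dorsal trunk dermis, read 1309, 1453 and 1387 (1383 ± 72.2), Six2 1302 ± 148, the hindlimb gene Pitx1 1142, 1299 and 968 (1136 ± 165) and Hand1 1098 ± 153. Tbx15, Pitx1 and Hand1 have 2 probe sets each, of which only 1 was above the floor. The forelimb gene Tbx5 read 310.5, 1371 and 1067, above the floor in replicates 2 and 3. Otx1 (on MOE430B, 91.9, 129.8 and 34.2) and Otx2 (155, 57.3 and 53.5) were below the floor. On MOE430B, Emx1 read 3912, 2826 and 3683, above the floor, on the brighter of its 2 probe sets. Emx2 read 3462, 4023 and 860 there, short of the floor in replicate 3 alone. Of 16 genes named in the literature as targets of HOX proteins 4 were above the floor on MOE430A, against 50.0% of all genes there. On either type it was 9 of 16, near the share of all genes (54.7%). Among the 4 were the cell cycle inhibitor Cdkn1a at 34890.2 ± 3206 and Ncam1 at 2601 ± 606.

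Antisense RNAs of the clusters were measured by 5 probe sets. Besides Hoxb5os, 1430263_at of Hoxd3os1 read 397, 2129 and 1641 on MOE430B, with replicate 1 below the floor. Its other probe set, 1460056_at, read 134, 571 and 508, below the floor with replicate 1 again lowest. Hoxa11os read 442, 419 and 342 on MOE430A and 408, 209.5 and 254 on MOE430B, below the floor on both. Hoxa11 itself, measured on MOE430A alone, was above it there.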
